A study of Mus musculus with 6 samples.

Results

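Transcripts of 10 members of the CXC chemokine system were followed across immune cells of mouse CT26 tumours. They comprised 6 ligands (Cxcl1, Cxcl2, Cxcl3, Cxcl9, Cxcl10 and Cxcl16) and 4 receptors (Cxcr2, Cxcr3, Cxcr4 and Cxcr6), taken by name from the 20649 genes of the deposited matrix, and all 10 were in it. CT26 is a colon carcinoma line grown under the skin of BALB/c mice. Tumours were injected 3 times with exosomes loaded with an antisense oligonucleotide, either against Stat6 (exoASO-STAT6, 3 tumours) or a scrambled sequence (exoASO-Scramble, 3 tumours), and were taken 24 h after the last injection. All 6 tumours thus received exosomes and an oligonucleotide, and no group without them was analysed here. CD45-positive cells were enriched and their RNA was counted by droplet 3′ sequencing. The matrix pooled 9235 cell barcodes in 6 libraries, numbered 3 to 8 by the ending of the barcode, and no label assigned a library to a tumour or a treatment. The treatments could therefore not be compared, and the data describe which cells held each transcript, with the spread over 6 libraries of unknown treatment. No test was run.

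Chemokines are small secreted proteins that guide leukocytes through receptors on their surface. Cxcl1, Cxcl2 and Cxcl3 belong to the ligands with a glutamate-leucine-arginine motif before the first cysteines, which draw neutrophils through Cxcr2 and are induced early in inflammation through NF-kB. Cxcl9 and Cxcl10 are induced by interferons and draw activated T cells and NK cells through Cxcr3. Cxcl16 is made as a membrane-bound protein and binds Cxcr6 on activated and tissue-resident T cells, whereas Cxcr4 binds Cxcl12 and is found on most leukocytes.

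The promoters of the ligands under contrast are shown because NF-kB and interferon-activated factors are known to act on genes of these families through such sequence. Of the 6 ligands, 5 had an entry in the RefSeq promoter table, build GRCm38.p6, and 9 of the 10 members had one in all. Each line gives the 250 bases before the annotated start, 5′ to 3′ on the gene's own strand, in lower case, with matches to a motif in capitals.
Cxcl1: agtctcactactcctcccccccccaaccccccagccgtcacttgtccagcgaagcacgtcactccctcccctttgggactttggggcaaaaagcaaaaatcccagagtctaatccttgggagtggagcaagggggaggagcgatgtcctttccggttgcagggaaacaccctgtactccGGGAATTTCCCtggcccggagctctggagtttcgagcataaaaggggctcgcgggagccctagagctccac
Cxcl2: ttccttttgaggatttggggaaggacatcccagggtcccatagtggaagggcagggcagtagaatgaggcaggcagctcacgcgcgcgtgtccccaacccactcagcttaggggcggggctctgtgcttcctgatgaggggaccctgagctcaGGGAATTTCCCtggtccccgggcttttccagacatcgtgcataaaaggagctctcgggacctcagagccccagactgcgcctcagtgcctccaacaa
Cxcl3: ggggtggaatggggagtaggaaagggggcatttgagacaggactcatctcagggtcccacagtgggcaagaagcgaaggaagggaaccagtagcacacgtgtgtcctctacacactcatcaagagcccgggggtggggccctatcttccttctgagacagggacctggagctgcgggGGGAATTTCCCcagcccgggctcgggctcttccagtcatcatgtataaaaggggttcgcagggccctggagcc
Cxcl9: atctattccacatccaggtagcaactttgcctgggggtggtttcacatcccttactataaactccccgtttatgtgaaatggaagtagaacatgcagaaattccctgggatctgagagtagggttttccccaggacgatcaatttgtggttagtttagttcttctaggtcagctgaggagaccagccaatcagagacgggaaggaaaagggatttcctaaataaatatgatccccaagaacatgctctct
Cxcl10: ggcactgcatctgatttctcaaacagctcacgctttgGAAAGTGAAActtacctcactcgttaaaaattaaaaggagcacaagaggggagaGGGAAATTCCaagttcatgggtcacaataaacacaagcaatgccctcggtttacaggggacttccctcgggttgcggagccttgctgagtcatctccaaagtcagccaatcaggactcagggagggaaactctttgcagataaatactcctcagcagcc
These windows lie at chr5:90890995-90891244 (Cxcl1, plus strand), chr5:90903649-90903898 (Cxcl2, plus strand), chr5:90785851-90786100 (Cxcl3, plus strand), chr5:92328080-92328329 (Cxcl9, minus strand) and chr5:92348890-92349139 (Cxcl10, minus strand). The 3 neutrophil-attracting ligands lie near each other on chromosome 5, and Cxcl9 and Cxcl10 lie near each other further along it.

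The 3 motifs searched, on both strands, were an NF-kB site (GGGA and TTCC with 2 bases between them), an interferon-stimulated response element (GAAA and GAAA with 2 bases between them) and an interferon-gamma-activated site (TTC and GAA with 3 bases between them). Cxcl1, Cxcl2 and Cxcl3 each held the NF-kB letters on both strands, 1 base apart, so that 9 of the 11 capital bases belong to both matches. The match covered positions -71 to -61 in Cxcl1, -97 to -87 in Cxcl2 and -73 to -63 in Cxcl3, counted from the start. The same 11 bases, GGGAATTTCCC, stood in all 3 promoters. Of 32841 promoter entries of the same length, 397 (1.21%) held the NF-kB letters on either strand and 14 (0.0426%) held these 11 bases on either strand, a run that was counted after it had been seen. Cxcl10 held 1 NF-kB match, at positions -159 to -150, and 1 match to the response element, at positions -213 to -204, and the 2 did not overlap. The response element letters were found in 978 (2.98%) of all entries. Cxcl9 matched none of the 3 motifs, Cxcr2, Cxcr3, Cxcr4 and Cxcr6 matched none either, and the activated-site letters, present in 2306 (7.02%) of all entries, matched no member. A match is a description of letters and no measure of binding.

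Groups were gated on raw UMI counts, a UMI being 1 counted transcript molecule. Myeloid gates had no UMI of Cd3e or Ncr1. Macrophages had at least 3 UMIs of Csf1r and Adgre1 together, and were split by at least 5 UMIs per 10000 of Rsad2, then Mmp12, then C1qa, then Ly6c2. Neutrophils had at least 5 UMIs of S100a9, and dendritic cells at least 1 of Flt3 or Xcr1. CD8 T cells, Treg cells and NK cells had at most 1 UMI of Csf1r and Adgre1. The 3908 macrophages fell into 535 of the Rsad2 state, 391 of the Mmp12 state, 1905 of the C1qa state, 451 of the Ly6c2 state and 626 remaining. The neutrophil gate held 692 barcodes, the CD8 T gate 216, the Treg gate 47, other T cells 147, the NK gate 361 and the B gate 34. Median depth per library lay between 7270 and 16125 UMIs, and 16 barcode sequences occurred in more than 1 library. Library 6 stood apart in composition, with 37.3% of its macrophages in the Rsad2 state against 6.60 to 14.6% in the others.

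Many barcodes carried transcripts of a macrophage beside those of another cell, which bears on every level given here. In the neutrophil gate 571 of 692 barcodes (82.5%) also met the macrophage rule, and the summed level of all 13 monocyte/macrophage markers there was 17340 CPM (UMIs per 1000000 UMIs, 12150 to 22080 by library), against 20280 CPM in macrophages. A strict neutrophil gate with at most 1 UMI of Csf1r and Adgre1 kept 78 barcodes, in which these markers summed to 8100 CPM and the 7 neutrophil markers to 12500 CPM, against 170 CPM of the neutrophil markers in macrophages. S100a9, on which the gate was drawn, gave 6830 of these 12500 CPM. No marker of either list was at 0 in these groups. The cut on raw counts also kept shallower barcodes, with a median of 6541 UMIs in the strict gate against 14883.5 UMIs in the full gate. Outside all gates, 1597 barcodes held Cd3e or Ncr1 together with at least 3 UMIs of Csf1r and Adgre1, at a median of 26279 UMIs against 11846 over all barcodes. No doublet caller was run, and how far free RNA or barcodes of more than 1 cell contribute was not tested.

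**Figure D1:**
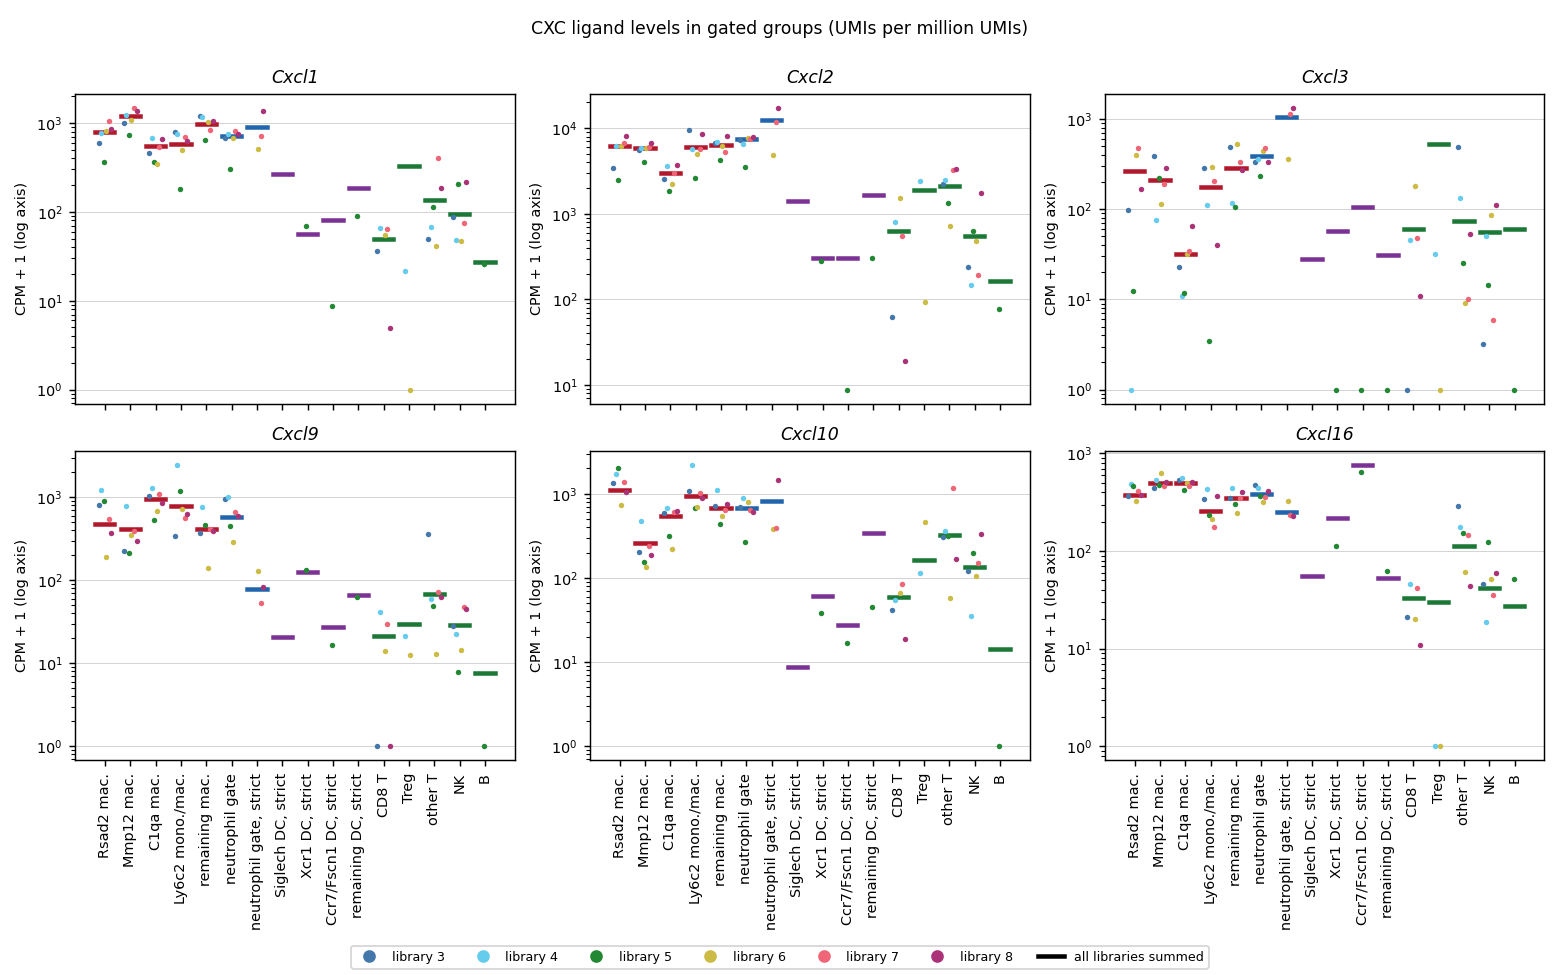
Levels of the 6 ligands in each gated group, in CPM plus 1 on a log axis. Thick lines are all libraries summed, and points are single libraries with at least 10 barcodes of the group. The thick lines of macrophage states (red) and neutrophil gates (blue) lie above those of lymphocytes (green) for Cxcl1, Cxcl2 and Cxcl9, although for Cxcl9 the strict neutrophil gate (77.3 CPM) and other T cells (67.2 CPM) overlap by library, while the strict Ccr7/Fscn1 dendritic group is highest for Cxcl16 and the strict neutrophil gate for Cxcl3.

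Among the neutrophil-attracting ligands, Cxcl2 transcripts were found throughout the myeloid groups, and their summed level was highest in the neutrophil gate itself. Cxcl2 reached 7424 CPM in the neutrophil gate (exact Poisson 95% interval 7376 to 7472, covering counting error only) and 4352 CPM (4335 to 4369) in macrophages. By library the neutrophil gate spanned 3489 to 7878 CPM, with a median of 7405, and library 5 gave the lowest value. The gate exceeded macrophages of the same library in 6 of 6, by 0.43 to 0.95 on the log2 scale with 1 CPM added to each level. The Rsad2, Mmp12, Ly6c2 and remaining macrophages lay close together, at 5828 to 6304 CPM. Neighbours in that order exceeded each other in only 2 to 4 of 6 libraries, and the neutrophil gate exceeded the remaining macrophages in only 3 of 6. The C1qa state stood below them, at 3030 CPM, and lower than the Mmp12 state in every library. After each barcode was thinned to 1000 UMIs, 93.8% (exact binomial interval 91.7 to 95.5) of neutrophil-gate barcodes had a UMI of Cxcl2, compared with 64.9% (62.7 to 67.1) in the C1qa state. The corresponding share was 11.6% in CD8 T cells and 8.82% in B cells, at median depths of 9486.5 and 3159 UMIs before thinning, and 14883.5 UMIs in the neutrophil gate. It was 21.8% in other T cells and 21.7% in Treg cells, whose summed levels were 2112 and 1907 CPM, and 1 barcode gave 37.2% of the Treg UMIs. Summed macrophage markers were 3719 CPM in other T cells, 2467 CPM in Treg cells and 1267 CPM in CD8 T cells, and their part in these values was not tested.

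Cxcl3 differed widely between macrophage states and libraries. Its level was 389.5 CPM in the neutrophil gate, where libraries spanned 232.6 to 474.7 CPM, and 121 CPM (118 to 124) in macrophages, where libraries spanned 28.8 to 279 CPM. The ratio was 1.68 on the log2 scale and above 0 in 6 of 6 libraries (0.68 to 3.60). The C1qa state had only 30.8 CPM (28.9 to 32.8), with 10.0 to 64.4 CPM by library. That was 2.93 log2 units below the other macrophages (library range -3.90 to -1.67), and lower in 6 of 6 libraries. A single barcode gave 19.7% of the Cxcl3 UMIs of that state. The high Treg value of 528 CPM came almost wholly from 1 barcode, which gave 95.6% of the UMIs, and without it the level was 24.1 CPM.

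In the strict neutrophil gate the summed contrast with macrophages was larger for Cxcl2 and Cxcl3 and small for Cxcl1. Cxcl2 reached 12620 CPM there and Cxcl3 1060 CPM (975.1 to 1150), or 1.54 and 3.12 log2 units above macrophages. Only libraries 6, 7 and 8 held 10 or more such barcodes, with Cxcl3 at 366, 1143 and 1328 CPM, and both genes were above macrophages in 3 of 3. In library 6, however, both contrasts were smaller in the strict gate than in the full gate, at 0.02 against 0.68 log2 units for Cxcl2 and 0.39 against 0.68 for Cxcl3. Cxcl1 was 891 CPM in the strict gate against 703 CPM in macrophages, and above macrophages in 1 of the 3 libraries. A single barcode gave 23.8% of the Cxcl1 UMIs of the strict gate.

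Cxcl1 differed between macrophage states, and its summed level was about the same in macrophages (703 CPM) and in the neutrophil gate (716 CPM). The Mmp12 state had the highest level, 1192 CPM (1165 to 1219), with libraries from 730 to 1471 CPM. It was 0.89 log2 units above the other macrophages (library range 0.74 to 1.22), higher in 6 of 6 libraries. It exceeded the remaining macrophages, which followed at 962 CPM, in 5 of 6 libraries. These were above the Rsad2 state, at 799.8 CPM, also in 5 of 6. The C1qa state was lower than the other macrophages in 6 of 6 libraries, by 0.71 log2 units in the sum, as it was for Cxcl2 by 1.01 units. The neutrophil gate was above macrophages in 3 of 6 libraries. Summed over the 3 ligands, the neutrophil gate had 8529 CPM and macrophages 5176 CPM, a log2 ratio of 0.72 that held in 6 of 6 libraries (0.39 to 0.86).

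The interferon-induced ligands showed another order of cells, and they did not share it with each other. Cxcl9 was highest in the C1qa state, at 954 CPM (943.7 to 965), and Cxcl10 in the Rsad2 state, at 1120 CPM (1095 to 1145). The next group in each order was Xcr1 dendritic cells for Cxcl9, which the C1qa state exceeded in only 3 of 6 libraries, and the Ly6c2 state for Cxcl10, which the Rsad2 state exceeded in 5 of 6. Of the Xcr1 barcodes 71.9% also had at least 3 UMIs of Csf1r and Adgre1, and with strict gates Xcr1 dendritic cells fell to 124 CPM of Cxcl9, so that the Ly6c2 state was next at 788 CPM, which the C1qa state also exceeded in 3 of 6. Cxcl9 in the C1qa state ranged from 524 CPM in library 5 to 1299 CPM in library 4 and was 0.93 log2 units above other macrophages, higher in 5 of 6 libraries. The C1qa state was also 0.42 log2 units above other macrophages in Cxcl16, in 6 of 6 libraries. In Cxcl10 it was 0.44 units below them in 6 of 6 libraries, but only 0.11 units below, in 4 of 6, when the Rsad2 state was left out of the other macrophages. The Mmp12 state was lower than other macrophages in both interferon-induced ligands in 6 of 6 libraries, by 0.94 log2 units for Cxcl9 and by 1.39 for Cxcl10. This state too was taken after the Rsad2 split, and against other macrophages outside the Rsad2 state it was lower by 1.04 and 1.23 units, again in 6 of 6 libraries.

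Cxcl10 in the Rsad2 state was 737 CPM in library 6 and 1040 to 1998 CPM in the other 5 libraries. It exceeded the other macrophages, at 564 CPM, by 0.99 log2 units in the sum and in 6 of 6 libraries (0.77 to 2.57). Rsad2, which defined the state, encodes the antiviral protein viperin and is itself induced by interferons. Cxcl9 did not follow it, with 474 CPM (458 to 490) in the Rsad2 state against 799.8 CPM in other macrophages. That difference of -0.75 log2 units was not shared by the libraries, since 3 were above 0 (0.01 to 0.81) and 3 below (-1.52 to -0.70). Library 6, which gave 198 of the 535 Rsad2 barcodes, had the lowest Cxcl9 of that state (191 CPM), and without it the difference was -0.31. For the sum of Cxcl9 and Cxcl10 the Rsad2 state had 1594 CPM and other macrophages 1364 CPM, a ratio of 0.22 on the log2 scale with a range over libraries of -0.05 to 1.77, above 0 in 5 of 6.

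The neutrophil-attracting ligands were not low in the Rsad2 state. Their sum was 7283 CPM against 4880 CPM in other macrophages, 0.58 log2 units higher, and above 0 in 4 of 6 libraries (-0.16 to 0.79). Cxcl2, the largest part of this sum, had 6216 CPM in the Rsad2 state and 5828 to 6304 CPM in the Mmp12, Ly6c2 and remaining macrophages. The C1qa state, with 1905 of the 3908 macrophages, had 3030 CPM, so that the excess was not particular to the Rsad2 state. Cxcl3 passed a 2-fold difference in the sum, at 267 CPM against 101 CPM, although the remaining macrophages had 286 CPM. Its values by library were 96.4, 0, 11.5, 398, 474 and 167 CPM for libraries 3 to 8, and the state exceeded other macrophages only in libraries 6, 7 and 8.

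Across all genes with at least 10 CPM in either group, 2.39% were 2-fold or more higher in the Rsad2 state, and Cxcl3 was the 1 of 7 measured members among them. With libraries weighted equally its log2 ratio was 0.77, below 2-fold, and single libraries ran from -4.99 to 2.24. In the Mmp12 state, 1.25% of genes were 2-fold higher, with no member among them, and 1.19% were 2-fold lower, Cxcl10 being the 1 member among 7. These calls depended on the comparison group. Against other macrophages outside the Rsad2 state 1.51% of genes were 2-fold higher, including 1 of 7 members, Cxcl3, which went from 0.93 to 1.30 log2 units and was above 0 in 5 of 6 libraries. There 0.862% were 2-fold lower, including 2 of 7 members, Cxcl9 and Cxcl10. In the C1qa state 2.82% of genes were 2-fold lower, and these included 2 of 7 members, Cxcl2 and Cxcl3. In the Ly6c2 state 2.25% of genes were 2-fold higher and 5.23% 2-fold lower, with no member among either. It lay 0.61 log2 units above the other macrophages in Cxcl10 (928 CPM) and 0.52 units above them in Cxcl2, each in 6 of 6 libraries. In Cxcl2, however, the Ly6c2 state (6028 CPM) was below the remaining (6304 CPM) and Rsad2 (6216 CPM) macrophages. It exceeded the Mmp12 state in only 2 of 6 libraries, and the C1qa state was the low one, at 3030 CPM. In Cxcl16 (257 CPM) the Ly6c2 state lay 0.85 units below the other macrophages, in 6 of 6 libraries.

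**Figure D2:**
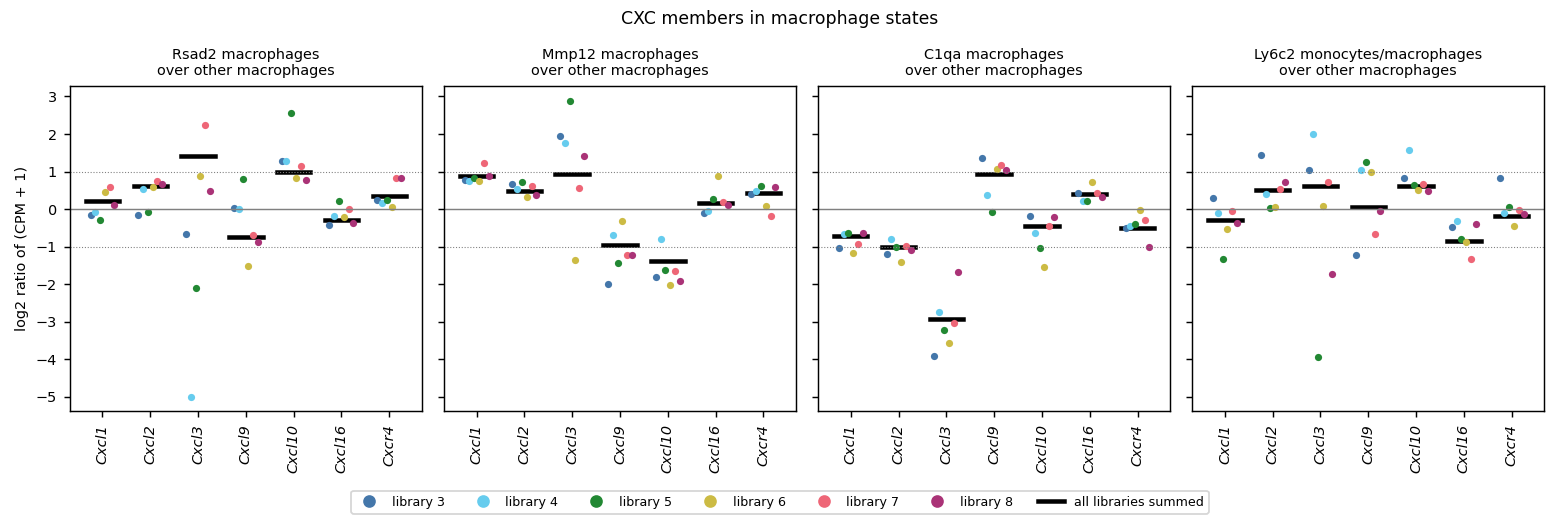
Log2 ratio of CPM plus 1 between each macrophage state and all other macrophages, for the 6 ligands and Cxcr4. Black lines are all libraries summed, points are single libraries, and dotted lines mark 2-fold. The C1qa panel shows Cxcl1, Cxcl2 and Cxcl3 below 0 in every library and Cxcl16 above 0 in every library, and the Rsad2 panel shows Cxcl10 above 0 in every library while Cxcl3 and Cxcl9 scatter on both sides.

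Genes of the pathways known to induce these ligands were counted from 2 lists. Of 14 interferon-induced genes, 9 were 2-fold or more higher in the Rsad2 state, with a median log2 ratio of 1.86 against -0.10 for all 7664 genes measured there. The state was drawn on Rsad2, itself induced by interferons, so this count describes the split and is no separate support for it. Ifit1, an antiviral RNA-binding protein, had 356 CPM against 23.4 CPM, and Isg15, a ubiquitin-like modifier, 967 CPM against 159 CPM. Among the listed genes that did not reach 2-fold were Irf1, an interferon-regulated transcription factor, at 0.62, and Ciita, the regulator of MHC class II, at -0.47. Of 10 early inflammatory genes, none passed 2-fold in that state, and their median log2 ratio was 0.48. In the C1qa state 3 of the 10 early inflammatory genes (Il1b, Ptgs2 and Il6) were 2-fold lower, with a median of -0.79 against 0.09 for all genes, and the same 3 were lower when the Rsad2 state was left out of the other macrophages. Of the 14 interferon-induced genes 8 were 2-fold lower in the C1qa state, but barcodes high in Rsad2 had been split off before it. With the Rsad2 state left out of the other macrophages, none of the 14 was 2-fold lower, against 2.63% of all genes, and their median log2 ratio was -0.38. The counts of the other states split after Rsad2 changed too. In the Ly6c2 state 1 of the 14 was 2-fold higher against all other macrophages and 7 were against those outside the Rsad2 state (median 0.94), where 3.01% of all genes were. In the Mmp12 state 6 of the 14 were 2-fold lower in the former comparison and 1 in the latter.

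Transcripts of 2 interferon genes were counted. Ifng, the type II interferon, had 315 CPM in CD8 T cells, 134 CPM in other T cells and 124 CPM in NK cells, and a single barcode gave 25.3%, 57.5% and 55.7% of these UMIs. Barcodes outside all gates held 65.0% of all Ifng UMIs, and those among them with both lymphocyte and macrophage transcripts 55.0%. Ifnb1, a type I interferon, had 49 UMIs in the Rsad2 state, or 7.06 CPM, against 0.36 CPM in other macrophages, and was higher in 6 of 6 libraries. These UMIs lay in 2.80% of the Rsad2 barcodes, 1 barcode gave 16.3% of them, and the lowest library had only 0.65 CPM.

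In each of the 5 gates that had a strict version, Cxcl9 was lower after barcodes with macrophage transcripts were removed. Each strict gate was also shallower, with median depths of 6541 to 12359 UMIs against 8727.5 to 18335 UMIs, and the part of depth was not tested. In the neutrophil gate Cxcl9 was 584 CPM, and in the strict gate 77.3 CPM (55.7 to 104.5), which was 3.28 log2 units below macrophages and lower in 3 of 3 libraries. In Xcr1 dendritic cells, the cross-presenting type, Cxcl9 was 932 CPM in 185 barcodes and 124 CPM (97.3 to 157) in the 45 barcodes of the strict gate, while the summed macrophage markers went from 14830 to 1670 CPM. It was 639 and 26.4 CPM in Ccr7/Fscn1 dendritic cells, 428 and 19.6 CPM in Siglech dendritic cells and 433.5 and 64.9 CPM in remaining dendritic cells. The ligands Cxcl1, Cxcl2 and Cxcl10 were also lower in the strict version of all 4 dendritic gates. In Xcr1 dendritic cells Cxcl10 went from 536 to 60.4 CPM, Cxcl2 from 2672 to 306 CPM and Cxcl1 from 473.5 to 55.3 CPM. Cxcl10 in the neutrophil gates differed by library, with 677 CPM in the gate and 826 CPM in the strict gate, of which 1 barcode gave 20.9% of the UMIs. From gate to strict gate it was lower in libraries 6 (805 and 381 CPM) and 7 (633 and 391 CPM) and higher only in library 8 (609 and 1471 CPM). In lymphocytes Cxcl9 was 20.2 CPM in CD8 T cells, 27.5 CPM in NK cells and 6.58 CPM, from 1 UMI, in B cells.

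**Figure D3:**
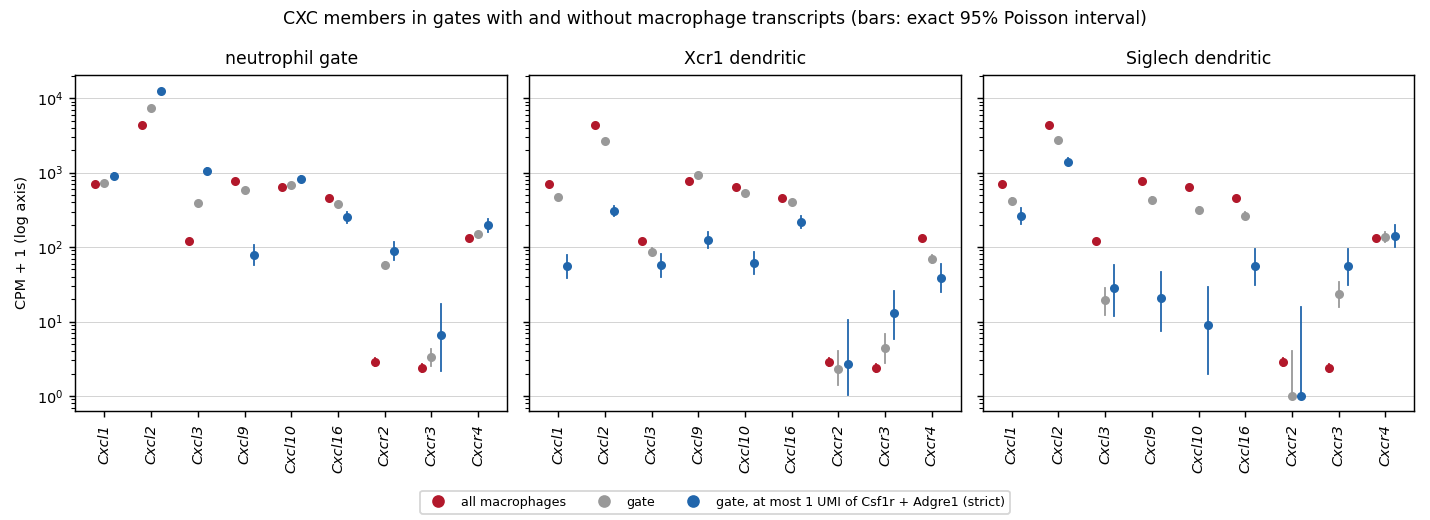
Levels of 9 members in 3 gates before (grey) and after (blue) removal of barcodes with more than 1 UMI of Csf1r and Adgre1, beside all macrophages (red), in CPM plus 1 on a log axis with exact 95% Poisson intervals. Cxcl9 falls from 584 to 77.3 CPM in the neutrophil gate and from 932 to 124 CPM in Xcr1 dendritic cells, while Cxcl2, Cxcl3 and Cxcr2 are higher in the strict neutrophil gate.

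Against macrophages, 1.30% of genes were 2-fold or more higher in the neutrophil gate, or 0.665% of the genes with at least 10 CPM in both groups, which included Cxcl3 alone of the 7 members that reached this in both. In the strict gate 7.52% were higher and 10.3% lower. Of the genes with at least 10 CPM in both groups 4.41% were higher, including Cxcl2 and Cxcl3 of the 7 members, and 5.11% were lower, including 1 member, Cxcl9. Cxcr2 in both gates, and Cxcr6 (from 6 UMIs) in the strict gate, reached the minimum only through the gate, so that they had to be higher and are not counted. Of the 10 early inflammatory genes 7 were 2-fold higher in the strict gate, among them Il1b (1.48 log2 units) and Ccl3 (2.07), and of the 14 interferon-induced genes 5 were, with a median of 0.67 against -0.16 for all genes. In the full neutrophil gate only 1 gene of each list was 2-fold higher, with medians of 0.53 for the early inflammatory and 0.46 for the interferon-induced genes.

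Within macrophages the families also differed from barcode to barcode. Each macrophage was thinned to 2000 UMIs, which left 3898 barcodes at the same depth, and the share with 1 ligand was compared between barcodes with and without another. Cxcl2 was detected in 96.7% of 1684 Cxcl1-positive barcodes and in 63.7% of 2214 negative ones. Cxcl1 was detected in 69.7% (64.1 to 74.8) of 300 Cxcl3-positive barcodes and in 41.0% (39.4 to 42.6) of the others. The interferon-induced pair also went together, with Cxcl10 in 41.7% (39.1 to 44.3) of Cxcl9-positive and 22.3% (20.7 to 24.0) of Cxcl9-negative barcodes. Each of these 3 differences had the same direction in 6 of 6 libraries.

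Across the families the direction was the opposite for Cxcl9. It was detected in 15.7% (11.7 to 20.3) of Cxcl3-positive and 37.5% (35.9 to 39.1) of Cxcl3-negative macrophages, lower in 6 of 6 libraries, although library 4 differed little (55.0% and 57.1%). Pooled over libraries, the same direction was seen within each macrophage state, from 3.90% against 26.3% in the Rsad2 state to 37.3% against 47.3% in the C1qa state, with 77 and 59 Cxcl3-positive barcodes. The intervals overlapped in the C1qa, Mmp12 and Ly6c2 states, few libraries could be compared within a state (1 in the Mmp12 state, 2 in the C1qa state), and the direction was reversed in 1 of 2 libraries in the Ly6c2 state and in 1 of 5 in the remaining macrophages. Over all macrophages without library 6 the shares were 20.1% and 39.1%. Cxcl9 was also less often found in Cxcl1-positive than in Cxcl1-negative macrophages, 32.4% (30.1 to 34.7) against 38.5% (36.5 to 40.6), in 6 of 6 libraries, but within the C1qa state this held in only 4 of 6. In the Mmp12 state the pooled shares were 25.5% and 24.5%, although the share with Cxcl1 was the higher in only 1 of 5 libraries, and in the Ly6c2 state it was the higher in 2 of 4. For Cxcl10 by Cxcl3 the shares were 22.0% (17.4 to 27.1) against 29.9% (28.4 to 31.4) with the direction reversed in 2 of 6 libraries. These shares are descriptions of barcodes that share libraries and are not independent repeats.

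**Figure D4:**
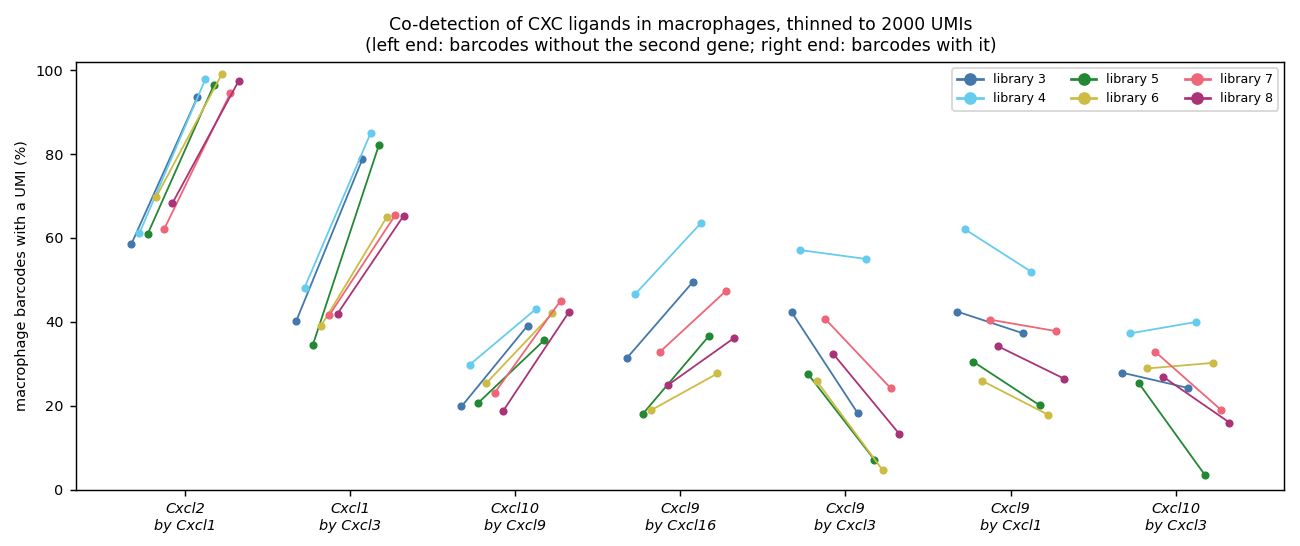
Percentage of macrophage barcodes, thinned to 2000 UMIs, with a UMI of the upper gene, in barcodes without (left end of each line) and with (right end) the lower gene. Each line is 1 library. Lines climb in all libraries for Cxcl2 by Cxcl1, Cxcl1 by Cxcl3, Cxcl10 by Cxcl9 and Cxcl9 by Cxcl16, and decline in all libraries for Cxcl9 by Cxcl3 and by Cxcl1.

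Cxcl16 was found at similar levels in macrophages of all libraries, and its summed level was highest in a group of dendritic cells. Macrophages had 448 CPM (443 to 454), with libraries from 357 to 542 CPM, and the C1qa and Mmp12 states were nearly equal at 502.5 and 499 CPM. The Ccr7/Fscn1 dendritic cells, a mature and migratory type, had 613 CPM (559 to 670.5) in 53 barcodes and 765 CPM (675 to 864) in the 34 barcodes of the strict gate, where the summed macrophage markers were 542 CPM. A single barcode gave 18.0% of the strict value, and only 1 library had 10 barcodes of the strict gate. Cxcl9 and Cxcl10 were each at 26.4 CPM in the strict gate, from 9 UMIs each. The gate before this restriction exceeded the C1qa state in Cxcl16 in 2 of 3 libraries. In macrophages Cxcl16 went together with Cxcl9, which was found in 44.4% (42.1 to 46.6) of Cxcl16-positive and 27.5% (25.6 to 29.5) of Cxcl16-negative barcodes, in 6 of 6 libraries. Within the Rsad2 state (28.0% and 18.7%) and the Mmp12 state (30.4% and 19.4%) this direction held in only 4 of 6 libraries each. For Cxcl1 by Cxcl16 the shares were 44.1% and 42.3%, higher in 2 of 6 libraries, although in the remaining macrophages they were 52.9% (46.6 to 59.1) and 42.0% (36.9 to 47.2), higher in 5 of 6. CD8 T cells had 32.3 CPM of Cxcl16, so that macrophages were 3.75 log2 units above them, in 5 of 5 libraries with enough barcodes (3.32 to 5.43).

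Among gated groups Cxcr2 was found mainly in the neutrophil gate, which also held transcripts of its ligands. Cxcr2 was 56.9 CPM (52.8 to 61.2) in the neutrophil gate, which held 51.3% of all 1387 Cxcr2 UMIs, and 1.89 CPM (1.55 to 2.29) in macrophages. Barcodes outside all gates held 38.4% of these UMIs, and those among them with both lymphocyte and macrophage transcripts 34.8%. By library the gate gave 53.9, 30.7, 71.0, 78.4, 50.6 and 49.9 CPM, against at most 7.35 CPM in macrophages, so that the groups did not overlap. The log2 ratio was 4.32 (3.25 to 4.83, 6 of 6 libraries), but 2.84 when barcodes that met both rules were placed with the macrophages, which then had 10.2 CPM. In the strict gate Cxcr2 was 88.3 CPM (65.1 to 117), from 48 UMIs. At 1000 UMIs, 5.36% (3.80 to 7.31) of neutrophil-gate barcodes had a Cxcr2 UMI compared with 4 of 3906 macrophages (0.10%). At that depth 0 of 357 NK barcodes had one, which allows up to 0.84% of barcodes with a UMI, and without thinning 0.83% had one. The 7.20 CPM in Rsad2 macrophages came mainly from library 6, at 16.5 CPM. The summed neutrophil markers were 318 CPM in that state and 99.0 to 372 CPM in the other 4. The highest sum, in the Ly6c2 state (1.08 CPM of Cxcr2), included 216 CPM of S100a8, against 114 CPM in the Rsad2 state. G0s2 was 48.8 CPM in the Rsad2 state and 5.16 to 7.1 CPM in the other 4. S100a9 was 21.7 CPM and 9.2 to 15.4 CPM, and Retnlg was also highest there. S100a8, Csf3r, Il1r2 and Mmp9 were each higher in another state. The part of neutrophil transcripts in these Cxcr2 levels was not tested. The related receptor Cxcr1 had 23 UMIs in the neutrophil gate, 1.84 CPM.

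**Figure D5:**
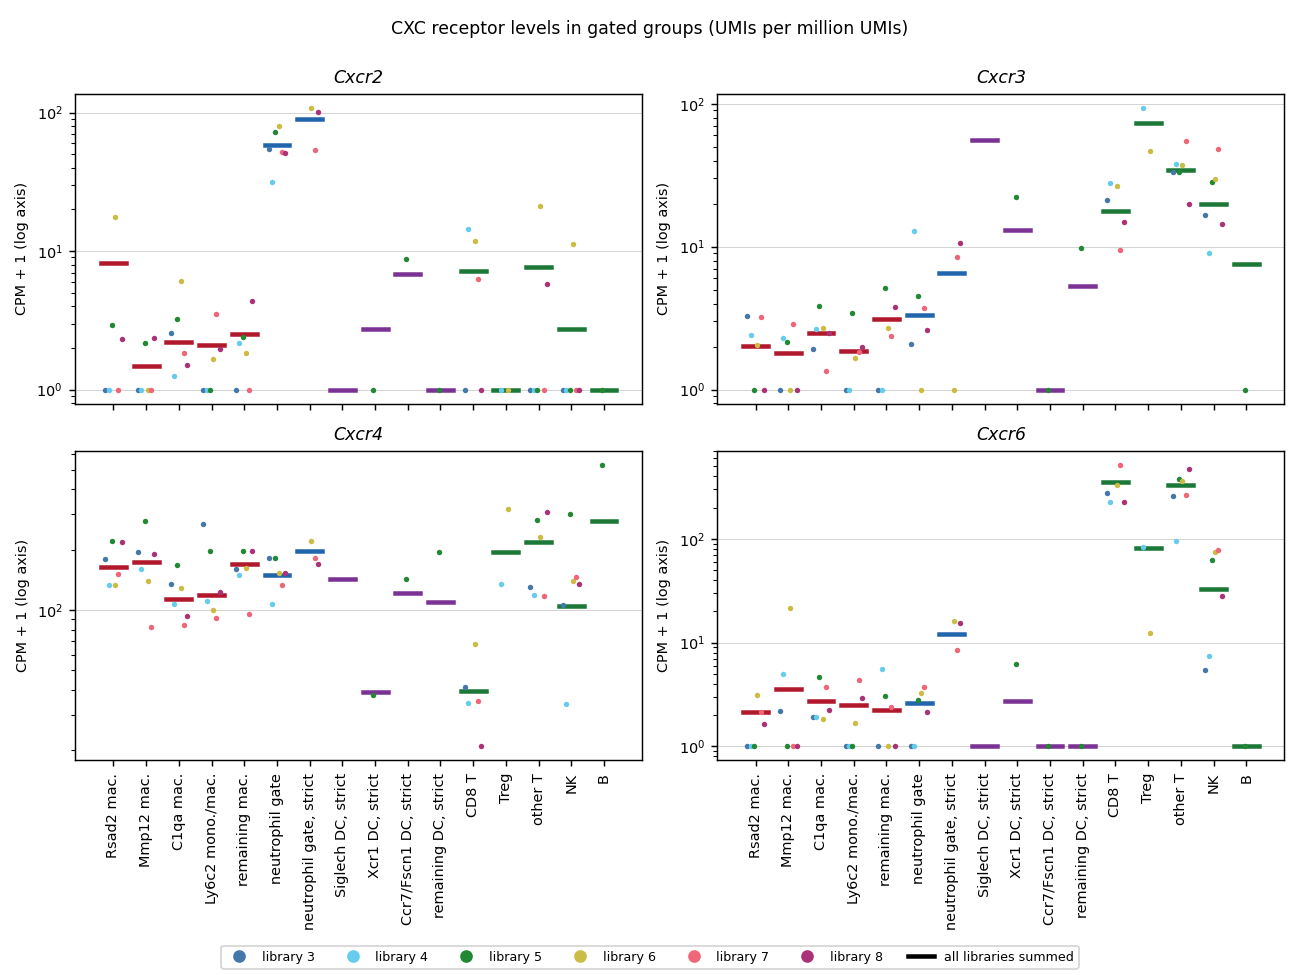
Levels of the 4 receptors in each gated group, in CPM plus 1 on a log axis, with all libraries summed as thick lines and single libraries with at least 10 barcodes as points. Cxcr2 stands out in the neutrophil gates, Cxcr6 in CD8 T and other T cells and Cxcr3 in Treg, other T and strict Siglech dendritic groups, while Cxcr4 is spread over nearly all groups.

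Cxcr3, the receptor of Cxcl9 and Cxcl10, was low wherever it was found. Treg cells had 72.1 CPM (46.7 to 106.5) from 25 UMIs, other T cells 33.6 CPM (22.7 to 48.0), NK cells 18.9 CPM (14.6 to 24.0) and CD8 T cells 16.7 CPM (12.1 to 22.6). The intervals of NK and CD8 T cells overlapped, and NK cells were the higher in only 2 of 5 libraries. CD8 T cells lay 2.90 log2 units above macrophages, which had 1.38 CPM, in 5 of 5 libraries (2.39 to 3.60). Of the 47 Treg barcodes, 10 also held Cd8a or Cd8b1. Siglech dendritic cells, a gate for plasmacytoid cells, had 22.3 CPM, and 55.0 CPM (30.1 to 92.2) from 14 UMIs in the 32 barcodes of the strict gate. Ccr7/Fscn1 dendritic cells had 0 Cxcr3 UMIs, which allows up to 3.88 CPM.

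Cxcr6, the receptor of Cxcl16, was found among gated groups mainly in T cells and, less, in NK cells. CD8 T cells had 352 CPM (329.7 to 376), with 223 to 517 CPM by library, and other T cells 329 CPM (293 to 369). CD8 T cells had the higher level in only 3 of 5 libraries. The group of other T cells was mixed, with mast cell/basophil markers at 681 CPM and NK markers at 1556 CPM, against 5.06 and 260.0 CPM in CD8 T cells. Their part in the receptor and Ifng levels given for other T cells was not tested. Macrophages had 1.68 CPM from 95 UMIs, a log2 ratio of 7.04 (6.49 to 7.32, 5 of 5 libraries). NK cells had 31.8 CPM (26.1 to 38.3) and differed by library, at 4.48 and 6.46 CPM in libraries 3 and 4 and 27.0 to 76.6 CPM in the other 4. Treg cells had 80.8 CPM from 28 UMIs, of which 1 barcode gave 28.6%. At 1000 UMIs, 33.0% (26.8 to 39.7) of CD8 T barcodes, 19.7% (13.5 to 27.2) of other T barcodes and 3.92% (2.16 to 6.49) of NK barcodes had a Cxcr6 UMI, compared with 0.13% (0.04 to 0.30) of macrophages, whose median depth was 12404.5 UMIs against 9486.5 in CD8 T cells. Barcodes outside all gates with both lymphocyte and macrophage transcripts held 60.9% of all Cxcr6 UMIs and 49.2% of all Cxcr3 UMIs.

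Of all genes measured in CD8 T cells or macrophages, 16.6% were 2-fold or more higher in CD8 T cells, and 19.5% were 2-fold lower. Of the genes with at least 10 CPM in both groups 14.1% were 2-fold lower, including all 7 members that reached this in both. Cxcl3 only just passed, at -1.01 log2 units, and ranged over libraries from -7.21 to 0.62, being higher in CD8 T cells in library 4. Cxcr3 and Cxcr6 reached the minimum only through CD8 T cells, so that they had to be among the higher genes and are not counted. Cxcr2 was the 1 member below 10 CPM in both groups.

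Cxcr4 was broadly held. B cells had the highest summed level, 276 CPM (199 to 373) from 42 UMIs, of which 21 came from the 12 barcodes of library 5, the only library with 10 B barcodes. Other T cells (217 CPM), the strict neutrophil gate (195 CPM) and Treg cells (193 CPM) followed, with intervals that overlapped. Macrophages had 132 CPM (129 to 135), with 90.8 to 189 CPM by library, and the neutrophil gate 148 CPM, a log2 ratio of 0.16 that was above 0 in 4 of 6 libraries. The strict neutrophil gate was 0.56 log2 units above macrophages in 3 of 3 libraries (0.34 to 0.99). CD8 T cells were low, at 38.5 CPM (31.3 to 46.9), and lay below macrophages in 5 of 5 libraries, by 1.75 log2 units. The C1qa state (112 CPM) was below other macrophages in 6 of 6 libraries (5 of 6 with the Rsad2 state left out of them), by 0.50 units. The Rsad2 state was above other macrophages in 6 of 6, by 0.35. Its summed level of 163 CPM was nevertheless below the Mmp12 state (172 CPM) and the remaining macrophages (169 CPM). Cxcl12, the ligand of Cxcr4, reached at most 2.59 CPM in any gated group, from 2 UMIs.

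Of 13 other genes of the family, 11 were in the matrix and 6 reached 10 CPM in a gated group. Pf4 was the most widely found, with 1617 CPM in remaining macrophages and 926 to 2885 CPM by library. Cxcl14 had 69.2 CPM in the C1qa state, and Cxcl13, the B cell attractant, 33.5 CPM there and 40.3 CPM in Xcr1 dendritic cells. Both were lower in the Rsad2 state than in other macrophages in 6 of 6 libraries, by 1.51 and 3.64 log2 units. Of the Xcr1 barcodes 71.9% also had at least 3 UMIs of Csf1r and Adgre1, and their part in the Cxcl13 value was not tested. Cxcl5, a further ligand of Cxcr2, had 26.7 CPM in remaining macrophages, of which 1 barcode gave 25.7% of the UMIs, with 0 to 133 CPM by library. Ppbp, also of that class, reached 12.1 CPM in the Rsad2 state, of which 1 barcode gave 60.7%. Cxcr5, the receptor of Cxcl13, was found in B cells, at 131.5 CPM from 20 UMIs.

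The genes whose levels were most like each member were taken over 60 points, each a gated group in 1 library with at least 20 barcodes, from 12 groups and 10364 genes. The points share libraries and the large contrast between myeloid and lymphoid cells, so that the Pearson coefficients of log2 levels are a description. Cxcl1 was most like Cd14 (0.93), Cd68 (0.92) and C5ar1 (0.92), which are myeloid surface or lysosomal proteins. Cxcl2 was most like Rab20 (0.94) and Ptgs2 (0.94), the latter a prostaglandin synthase of the early inflammatory list. Cxcl3 had no close partner, with F10 at 0.64, Sgms2 at 0.64 and Slc7a11 at 0.63, and its coefficient with Cxcl2 was 0.52. Cxcl9 was most like Klra2 (0.94), Clec12a (0.93) and Ifi30 (0.93). Cxcl10 was most like Gbp2b (0.84), a guanylate-binding protein, and the cytokine genes Il15 (0.82) and Il27 (0.81). The coefficient between Cxcl9 and Cxcl10 was 0.71, no higher than that between Cxcl9 and Cxcl1 (0.77). Cxcl16 was most like Hexa (0.97), a lysosomal hexosaminidase subunit, Cd93 (0.96) and Cfp (0.95).

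Among the receptors, Cxcr2 was most like Cstdc4 (0.84), Stfa2l1 (0.83) and Asprv1 (0.81), the first 2 being stefin-type protease inhibitor genes. Cxcr6 was most like Tesc (0.94), Cd247 (0.93), the zeta chain of the T cell receptor complex, and Ubash3a (0.93). Cxcr3 was most like Ptprcap (0.90), Pde7a (0.89) and Ablim1 (0.89), and its coefficient with Cxcr6 was 0.70. Cxcr4 was most like Mindy2 (0.73), Tcp11l2 (0.72) and Ahnak (0.72).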

How the data were processed

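The study counted RNA of single CD45-positive cells from 6 CT26 tumours. The deposited file is a matrix of raw UMI counts, made by the authors and pooled over all tumours, and all values checked were whole numbers. The submitters' processing notes name Cell Ranger 1.2, Seurat 3.1.5, R 4.0.1 and build mm10. The filter that kept these barcodes is not given in the sources used here. Barcode endings matched no label, so treatments were not compared, no test was run and no p-value is given. All 9235 barcodes were used, with no further filter, and 62.6% met a gate. A level is the summed UMIs of a group per 1000000 UMIs (CPM), and ratios are log2 after adding 1 CPM. Library values need 10 barcodes. Intervals are exact 95% Poisson or Clopper-Pearson intervals and cover counting error only, and 3 counts set the limit given for 0. Shares were taken after thinning each barcode to 1000 UMIs, or 2000 for co-detection, leaving out shallower barcodes. Where a 2-fold difference is counted, the gene had at least 10 CPM in either group. Barcodes that met several rules were placed in the neutrophil gate first, then dendritic, then macrophage. CD8 T cells needed Cd3e and Cd8a or Cd8b1 without Foxp3, other T cells Cd3e, and NK cells Ncr1 without Cd3e. Dendritic cells were split by 3 UMIs of Siglech, 1 of Xcr1, then 3 of Ccr7 and Fscn1 together, B cells needed 3 UMIs of Cd79a, and Treg cells Cd3e and Foxp3. Members, gates and gene lists were chosen with earlier results of these data known. Named genes are the members, the other family genes with 10 CPM in some gated group (those below it appear only where a result turns on them), the listed pathway genes and the 3 genes most like each member. Some genes that this rule names are not reported here. Promoters came from RefSeq (GRCm38.p6). The fold script was tested on simulated data. Python 3.11.15, numpy 2.4.6, scipy 1.17.1 and pandas 2.3.3 were used. The alternatives tried were stricter gates, other split thresholds, another gate order, filters on depth, other weights, other thinning depths, each library left out and, for states split after Rsad2, a comparison group without the Rsad2 state. Total depth was 140562949 UMIs.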

Additional observations from a re-analysis of the deposited data

How the results depend on the processing

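For 8 level ratios between groups, 14 alternatives each gave 112 values on the log2 scale. None reversed, 104 moved by less than 1 SD over libraries, and 8 moved by more. With strict gates, the ratio of neutrophil gate to macrophages was 1.49 for the sum of Cxcl1, Cxcl2 and Cxcl3, 4.95 for Cxcr2 and 0.56 for Cxcr4, and with the macrophage gate first it was 1.43, 2.84 and 0.42. The ratio of CD8 T cells to macrophages for Cxcr6 was 7.45 with equal barcode weight. With each library left out in turn the ranges for the neutrophil gate over macrophages were 0.66 to 0.79 for the sum of Cxcl1, Cxcl2 and Cxcl3, 4.19 to 4.70 for Cxcr2 and 0.10 to 0.25 for Cxcr4. In CD8 T cells they were 2.71 to 3.17 for Cxcr3 and 6.66 to 7.14 for Cxcr6, the lowest without library 7, and 3.513 to 3.997 for Cxcl16 in macrophages over CD8 T cells. In the Rsad2 state they were 0.54 to 0.61 for Cxcl1, Cxcl2 and Cxcl3 together and 0.03 to 0.54 for Cxcl9 and Cxcl10 together, lowest without library 5 and highest without library 6. Chosen after the data were seen, the ratio of single ligands in that state without library 6 kept its sign for all 6 ligands (Cxcl3 1.03, Cxcl9 -0.31, Cxcl10 1.25), and with libraries weighted equally it was 0.77, -0.20 and 1.34. Also chosen afterwards, leaving the Rsad2 state out of the other macrophages turned the ratio of the Ly6c2 state for Cxcl9 from 0.06 to -0.024 and moved no other ligand ratio of the 3 later states by more than 1 SD over libraries.

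Shares of barcodes with a UMI differed with the depth of thinning. From thinning to 2000 UMIs to no thinning, they were 61.3% and 77.8% for Cxcl1 in the Mmp12 state, 96.5% and 99.1% for Cxcl2 and 29.1% and 51.2% for Cxcl3 in the neutrophil gate, 47.0% and 69.7% for Cxcl9 in the C1qa state, 40.0% and 61.1% for Cxcl10 in the Rsad2 state, 60.4% and 94.3% for Cxcl16 in Ccr7/Fscn1 dendritic cells, 11.7% and 45.5% for Cxcr2 in the neutrophil gate and 48.4% and 84.7% for Cxcr6 in CD8 T cells. Unthinned, they were 34.0% for Cxcr3 in Treg cells and 52.9% for Cxcr4 in B cells. With a minimum of 1 CPM instead of 10 CPM, the genes past 2-fold numbered 479 instead of 279 for the Rsad2 state and 185 instead of 100 for the neutrophil gate. No paired analysis was possible because no label assigns barcodes to tumours, so the treatments could not be paired, while ratios between cell groups were also taken within each library. Cxcr2 and Cxcr3 rest on few UMIs outside the groups named, and their levels there are known only within the counting intervals.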

Other observations

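Most ligand transcripts in macrophages were spread over many barcodes. The barcode with the most UMIs gave 0.64% of Cxcl1, 0.26% of Cxcl2 and 3.37% of Cxcl3 in macrophages, and 0.47% of Cxcl9, 1.27% of Cxcl10 and 0.17% of Cxcl16. Over all barcodes, libraries ranged from 50.6 to 303 CPM for Cxcl3, and from 2417 to 5531 CPM for Cxcl2. Library 5 had the lowest Cxcl1 and Cxcl2 in macrophages, 441 and 2582 CPM, the lowest median depth, and 2.01% of its barcodes in the neutrophil gate. Library 6 had the highest Cxcl3 in macrophages, 279 CPM, the lowest Cxcl9 over all barcodes, 330 CPM, and 13.6% of its barcodes in the neutrophil gate. Whether these libraries differ by treatment cannot be told from the labels used here.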
